A study of Drosophila melanogaster with 8 samples.

Results

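The Delta class glutathione S-transferases were examined in whole adult males of Drosophila melanogaster, comparing dHNF4 mutants with genetically matched controls. dHNF4 is the fly counterpart of HNF4A, a nuclear receptor that controls metabolic genes in liver, gut and pancreas of mammals. Members were the rows of the authors' deposited table whose symbol starts with GstD, namely GstD1, GstD2, GstD3, GstD4, GstD5, GstD9 and GstD10, together with CG17639, now named GstD11. These are 8 of the 1290 genes in the table. The annotation used for gene order names 11 Delta class genes in all, and no row was found for the other 3, GstD6, GstD7 and GstD8, which were not analysed here. A gene had a row only if it had passed a change of 1.5-fold and a false discovery rate of 1%, so each of the 8 had already been called before it could be a member. The table lists 572 higher and 718 lower genes. The study counts more in both directions at these cutoffs, and most of the shortfall lies among higher genes. A gene without a row may therefore still have changed, above all upward.

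The comparison held 4 dHNF4 mutant and 4 control samples, each of 40 males. The mutants carried the null alleles dHNF4∆17 and dHNF4∆33 over each other, which come from imprecise excisions of the P-elements EP2449 and KG08976 and remove the receptor from every tissue. The controls carried precise excisions of the same elements in the w1118 background. All flies grew up on food with 3% sugar, were given 15% sugar from day 5 after eclosion and were collected after 3 days on it, at 8 days old. Libraries were made from polyadenylated RNA and all shared 1 lane of 50-cycle single reads. The table was made from 79334491 queried reads for the mutants and 81635511 for the controls. It gives 1 log2 ratio per gene, mutant over control, and no value for single samples, so no standard deviation, interval or overlap between the groups can be given and the errors below are false discovery rates alone. Hnf4 had no row, so the loss of its transcript could not be checked. RNA came from whole animals, in which fewer cells of a type and less RNA per cell cannot be told apart.

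Glutathione S-transferases join the small peptide glutathione to reactive or foreign compounds, which makes these easier to excrete. The Delta class is found in arthropods and is known for its part in resistance to insecticides. Its best studied fly member, GstD1, breaks down the insecticide DDT and is widely used as a reporter of oxidative stress through the transcription factor CncC, the fly relative of mammalian Nrf2, which Keap1 holds in check.

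Transcripts of 7 Delta class genes were higher in dHNF4 mutants and 1 was lower. The higher genes were GstD1, GstD2, GstD3, GstD4, GstD5, GstD9 and GstD10, and the lower gene was CG17639. Of the 13038 tests that could be recovered from the score columns, 4.39% were listed as higher and 5.51% as lower, 9.89% in all. As the study's own count of higher genes is larger, the share listed as higher may be too low. Among the 11 annotated Delta class genes the listed share can be read only as 7 higher and 1 lower, since whether the other 3 were tested is not known. The median log2 ratio of the 8 members was 1.39, beside −0.65 for all 1290 genes in the table. The latter is not a typical value, since no listed log2 ratio was smaller than 0.60 in size. It is negative because 718 genes were lower and 572 higher. The 7 higher members had a median of 1.63, beside 0.90 for all 572 higher genes, and each of the 7 lay above that value, GstD10 only just. These counts describe genes that had passed the cutoffs and carry no test of their own.

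The size of the change differed widely among the members. GstD2, a glutathione S-transferase gene with a single exon, stood far above the others with a log2 ratio of 6.76, about 108-fold on the scale of the values with 1 added (false discovery rate 2.92e-25 with the authors' variance outlier filter). It was the third highest of the 572 higher genes in the table. GstD4 followed with a log2 ratio of 3.42, about 10.7-fold (false discovery rate 1.80e-13), and ranked 25 among higher genes. No other member lay between GstD2 and GstD4, which were 3.34 apart on the log2 scale. Because 1 was added to each value before the ratio was taken, the change of a transcript that was rare in controls is understated.

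GstD1 and GstD3 had almost the same ratio. The log2 ratio was 1.64 for GstD1 (3.11-fold, false discovery rate 3.19e-41) and 1.63 for GstD3 (3.10-fold, false discovery rate 1.34e-17). They ranked 99 and 100 among the higher genes. GstD3 encodes the shortest protein of the class in the annotation, 199 residues against 209 for GstD1 and 215 for GstD2, and is known for a shortened start of the protein. Whether the pair differ cannot be said, as the table gives no spread for either ratio.

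Smaller rises were found for GstD5, GstD9 and GstD10. GstD5 had a log2 ratio of 1.14 (2.20-fold, false discovery rate 8.10e-15), GstD9 of 0.97 (1.96-fold, false discovery rate 6.17e-18) and GstD10 of 0.90 (1.87-fold, false discovery rate 1.17e-05). Thus 5 of the 7 higher members passed 2-fold and 2 passed 4-fold. Their ranks among higher genes were 196, 249 and 284, which puts GstD10 near the middle of the 572.

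CG17639 moved the other way. Its log2 ratio was −0.77, a level 1.71-fold lower in mutants (false discovery rate 8.36e-04). It had the smallest change and the weakest false discovery rate of the 8 members, and ranked 513 by size among the 718 lower genes. CG17639 also differs in structure, with 3 or 4 exons and a predicted protein of 222 or 243 residues depending on the transcript.

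**Figure D1:**
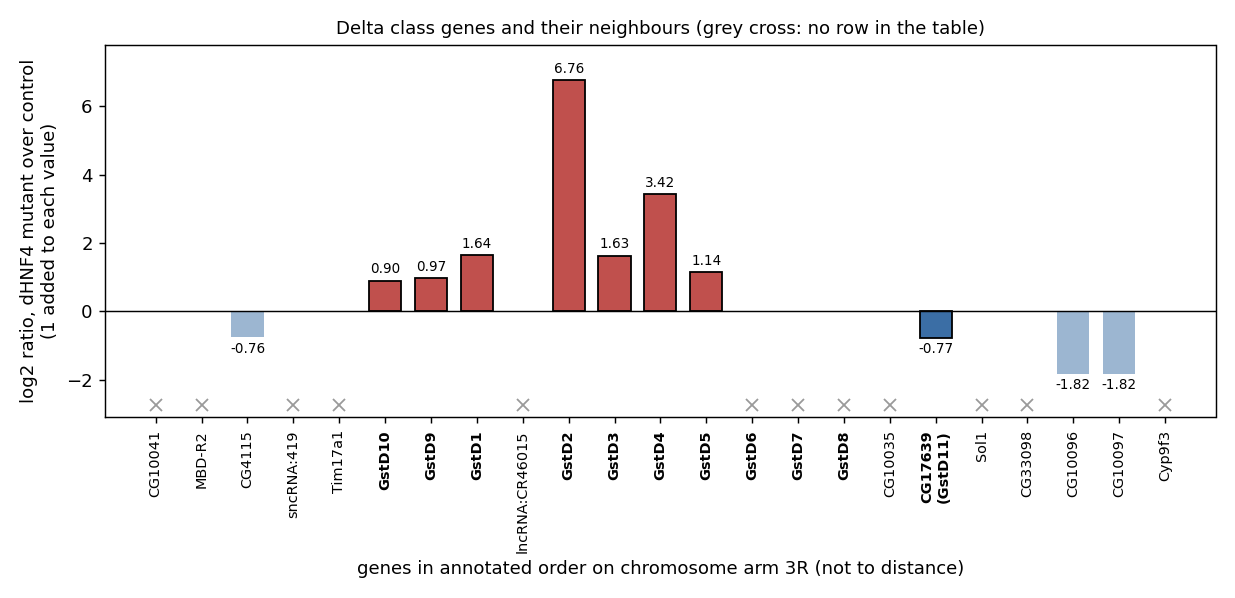
Log2 ratio of dHNF4 mutant over control (vertical axis) for the 11 Delta class genes, in bold with outlined bars, and for the other genes within 5 places of them, in annotated order on chromosome arm 3R and not drawn to distance. Red bars are higher and blue bars lower in mutants, and grey crosses mark genes with no row; the 7 higher genes run from GstD10 at 0.90 to GstD5 at 1.14 with the peak of 6.76 at GstD2.

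The 7 higher members were neighbours in the genome. In the reference annotation all 11 Delta class genes lie on chromosome arm 3R, and 10 of them form a block with no other protein-coding gene inside it. GstD10, GstD9 and GstD1 lie on 1 strand with 2 exons each. GstD2, GstD3, GstD4, GstD5, GstD6, GstD7 and GstD8 follow on the opposite strand with 1 exon each. The higher genes filled the first 7 places of this block, and the 3 genes without a row filled the last 3. Only lncRNA:CR46015, a noncoding gene without a row, is annotated inside the run, between GstD1 and GstD2. The highest ratio of the block was found in GstD2, the first protein-coding gene after the strand changes.

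Within the block the ratio did not change smoothly with position. GstD3, at 1.63, lies between GstD2 at 6.76 and GstD4 at 3.42. On the strand of GstD1, the ratio was 1.64 at the gene nearest to GstD2 and below 1 in both genes beyond it, 0.97 in GstD9 and 0.90 in GstD10.

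A run of 7 adjacent protein-coding genes that were all listed in the same direction occurred at 1 other place in the genome. There the genes were lower and ran from Sfp24Ba to Acp24A4, which encode seminal fluid proteins among others. The next longest run of higher genes held 4 genes, from Balat to Nmda1. Among the 7 runs of 3 higher genes was that of GstE6, GstE7 and GstE8, glutathione S-transferases of the Epsilon class. Gene order was taken from an assembly later than the dm3 genome to which the reads were aligned, and the runs depend on which genes had a row.

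CG17639 lies outside the run, with CG10035, a gene without a row, between it and GstD8. Around the Delta class genes, 12 other genes lay within 5 places on either side or inside the block. None of them was listed as higher and 3 were listed as lower, beside 4.39% and 5.51% of all tests. At such shares, the absence of a higher gene among 12 can be read only loosely. Of the 12, 10 are protein-coding, and whether all were tested is not known. CG4115, on the far side of GstD10, had a log2 ratio of −0.76 (false discovery rate 6.47e-07). CG10096 and CG10097, beyond CG17639, each had a ratio of −1.82 (false discovery rate 2.31e-145), but the annotation gives both the same span, so that their reads cannot be told apart and they count as 1 measurement.

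With the variance outlier filter, the strength of the evidence did not follow the size of the change. GstD1 had the lowest false discovery rate of the 8 members and ranked 176 of 13038 genes by p-value, ahead of GstD2 at 297 despite the far larger ratio of GstD2. Without the filter GstD2 came ahead of GstD1, which then ranked 148. With the filter, GstD9 ranked 433, GstD3 444, GstD5 547 and GstD4 608. GstD10 ranked 1489 and CG17639 2416. Among 64 other genes whose log2 ratio lay within 0.25 of that of GstD1, 60 had a weaker false discovery rate. This held for 205 of 232 genes of like ratio for GstD9, 49 of 63 for GstD3 and 96 of 144 for GstD5. For GstD4 it held for 5 of 10, for GstD10 for 117 of 304 and for CG17639 for 26 of 387. GstD2 had only 1 gene of like ratio, which was weaker. GstD1 thus stood near the top of the genes of its own size of change, and GstD9, GstD3 and GstD5 above the middle. GstD4 stood in the middle, GstD10 below it and CG17639 near the bottom. Sampling depth of single genes is not given in the table, so the part of transcript abundance in these ranks was not tested.

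**Figure D2:**
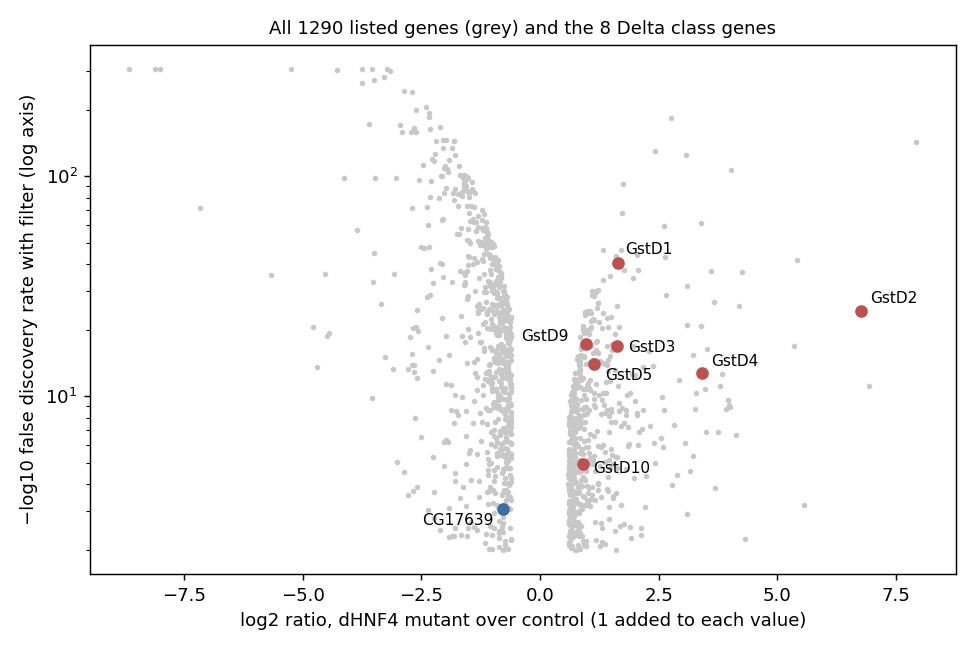
Log2 ratio of dHNF4 mutant over control (horizontal axis) against the negative log10 of the false discovery rate with the variance outlier filter (vertical log axis) for all 1290 listed genes in grey and the 8 Delta class genes in red where higher and blue where lower. GstD1 lies highest among the 8 although its ratio of 1.64 is far below that of GstD2 at 6.76, and CG17639 lies lowest.

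GstD2, GstD3 and GstD1 were the members most affected by the authors' variance outlier filter, a step whose name points to genes that vary between samples but whose working the sources used here do not describe. GstD2 kept 8.16% of its p-value score under the filter. This is an upper limit, because its score without the filter had reached the ceiling that 19 genes shared. As computed, 25 of the 1290 genes, GstD2 among them, had this share or less. The true place of GstD2 among them is not known, since shares of genes at the ceiling are upper limits. GstD3 kept 33.6% and GstD1 49.3%. In contrast, CG17639 kept 80.1%, GstD10 82.8% and GstD9 93.9%, and the scores of GstD4 and GstD5 were the same with and without the filter. Of all listed genes, 24.6% kept less than 50% of the score and 49.1% were unchanged.

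All listed genes passed the cutoff of 1% both with and without the filter, so no member could lose its call. Without the filter the false discovery rate was 8.65e-85 for GstD1, 1.20e-53 for GstD3, 2.44e-19 for GstD9, 5.32e-15 for GstD5, 1.23e-13 for GstD4, 6.64e-07 for GstD10 and 9.96e-05 for CG17639. The filter reordered the members. GstD2 was first without it, at the ceiling, and stood behind GstD1 with it, and GstD3 fell behind GstD9. The variation of single samples behind these shifts was not analysed here.

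**Figure D3:**
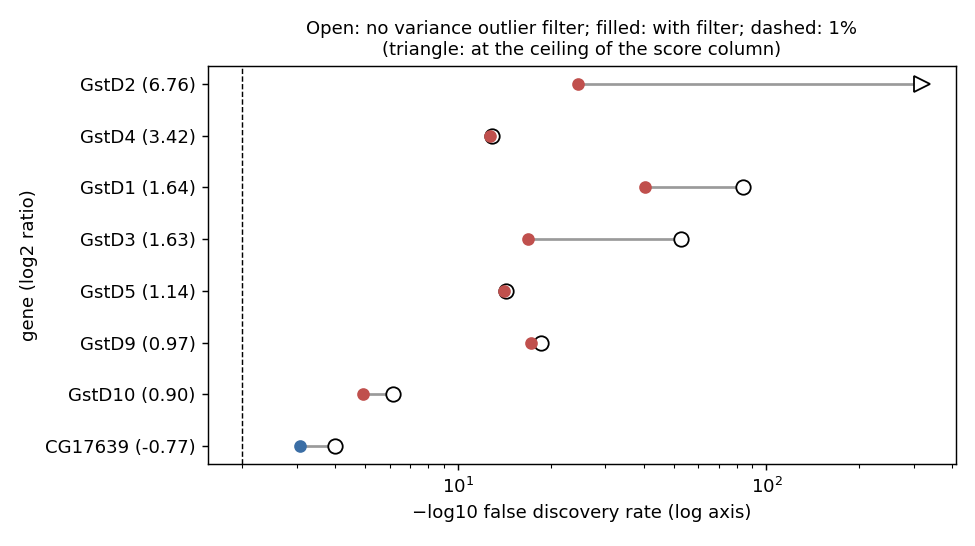
Negative log10 of the false discovery rate (log axis) for each of the 8 members, ordered by log2 ratio, without the variance outlier filter (open symbols) and with it (filled symbols, red where higher and blue where lower). The dashed line marks 1% and the triangle for GstD2 a score at the ceiling; GstD2, GstD3 and GstD1 shift most, from 1.20e-53 to 1.34e-17 in GstD3, and GstD4 and GstD5 hardly at all.

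The Delta genes are close paralogs that arose by duplication, and the sources used here do not say how a 50-base read that matches more than 1 gene was counted. The ratios of the members should therefore be read as uncertain to the extent that they share reads with each other or with GstD6, GstD7 and GstD8. Sequences were not compared here, so which genes share reads is not known. No annotated gene overlaps any of the 11 Delta class genes.

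Listed members of the Epsilon class, the other large insect class, were also all higher, 6 of 14 annotated genes, from GstE6 with a log2 ratio of 0.63 to GstE1 with 3.07 (false discovery rate 1.26e-125). CG6776 (GstO3), the 1 listed gene of 3 in the Omega class, stood at 0.86. Listed genes of the Theta class (3 of 4), the Zeta class (1 of 2) and the microsomal transferase Mgstl were lower, between −2.02 for CG1702 (GstT3) and −0.78 for CG30005 (GstT2), as was CG17639. GstS1, the Sigma class gene, had no row. GstD2 and GstD4 thus had the largest ratios of all 20 listed glutathione S-transferase genes, with GstE1 next, and CG17639 the fall closest to 0. Whether the classes differ was not tested.

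**Figure D4:**
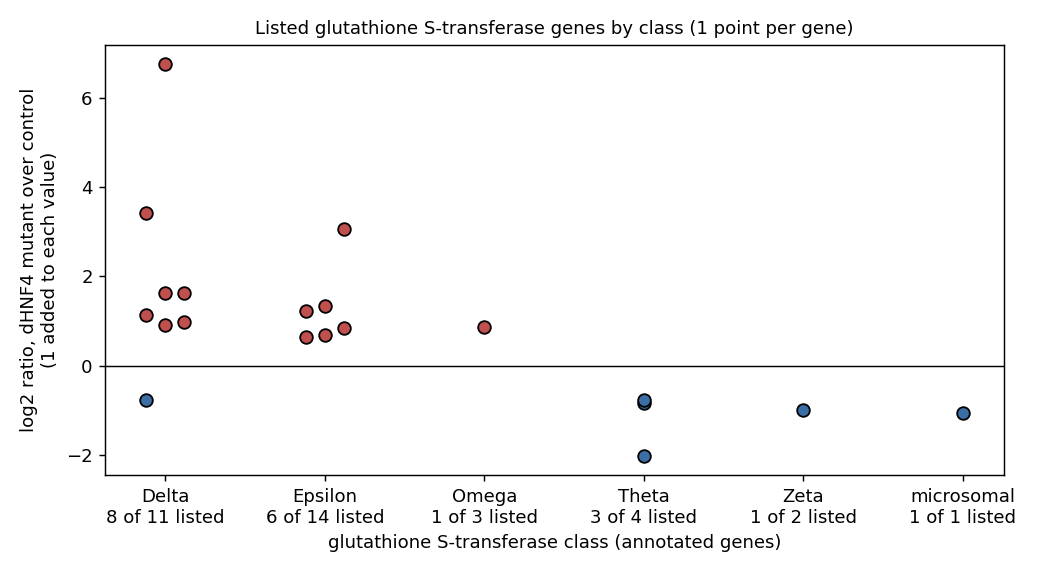
Log2 ratio of dHNF4 mutant over control (vertical axis) for each listed glutathione S-transferase gene, 1 point per gene, by class, with the number listed of those annotated below each class. Delta and Epsilon genes lie above 0 apart from CG17639 at −0.77, GstO3 lies above 0, and the Theta, Zeta and microsomal genes lie below 0.

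Genes that act beside the Delta enzymes were listed in both directions, and none of the genes examined for glutathione synthesis had a row. Against 9.89% of all tests, the listed share of these lists can be read only loosely, since how many of their genes were tested is not known. A list of 24 genes covered glutathione synthesis, thioredoxins and their reductases, peroxidases, catalase, superoxide dismutases and the microsomal transferase Mgstl. Of these, 1 was higher, the thioredoxin reductase Trxr-1 at 0.72 (false discovery rate 3.96e-11). The 1 lower gene was Mgstl at −1.08 (false discovery rate 3.46e-48), already counted above among the transferases. Of 15 genes comprising the CncC and Keap1 regulators and enzymes known to respond to stress or foreign compounds, 3 were higher and 2 lower. The higher genes were the cytochrome P450 Cyp6a8 at 3.80, the autophagy receptor ref(2)P at 1.05 and the juvenile hormone epoxide hydrolase Jheh1 at 1.00. Cyp6a8 kept at most 3.87% of its score under the variance outlier filter, ref(2)P 36.2% and Jheh1 24.1%. As the scores of Cyp6a8 and GstD2 were both at the ceiling without the filter, the shares of Cyp6a8 and GstD2 cannot be ranked. The lower genes were Cyp6g1, a P450 known for DDT resistance, at −0.84, and Jheh3 at −0.74. Cyp6g1 kept 55.4% of its score and Jheh3 100%. The regulators cnc, Keap1 and maf-S had no row. Of 15 transporters of the ABC family that may carry glutathione conjugates, CG31792 alone was listed, at 0.87.

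Some markers of tissues in which detoxification enzymes act were also listed, beside 9.89% of all tests. Of 11 enterocyte markers 5 were lower, from Jon25Bi at −2.02 to Amy-p at −0.67, and none was listed as higher. Under the variance outlier filter Jon25Bi kept 6.80% of its score, betaTry 28.2%, thetaTry 41.0%, Amy-d 60.7% and Amy-p 80.6%. Of 3 fat body markers that could be matched to the annotation, 2 were lower. These were Lsp2 at −1.76, which kept 44.7% of its score, and Rfabg at −0.77, which kept 27.8%. Of 8 Malpighian tubule markers 7 had no row and 1 was higher, the urate oxidase Uro at 0.93, which kept 21.2%. Their part in the rise of the 7 Delta class genes was not tested.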

How the data were processed

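Whole-animal poly(A) RNA from 4 control and 4 dHNF4 mutant samples was compared by the authors with USeq and DESeq after alignment to dm3; no versions were found in the sources used here. The deposited table holds their log2 ratio of mutant over control, with 1 added to each value, on a scale that is not spelled out. Treatment in its header was read as mutant. The score columns deposited by the authors are 10 times the negative log10 of negative binomial p-values and of Benjamini-Hochberg false discovery rates, with and without a variance outlier filter. Scores were converted back to false discovery rates, except those at a column's highest value. Rates printed are with the filter unless stated. All columns are the authors' own comparison, used because no values per sample were available for analysis here.

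Ranks by p-value equal the number of tests times the p-value over the false discovery rate, and 13038 tests made the most ranks whole. Within 0.05 this held for 96.9% of 1271 usable genes in the unfiltered columns and for 95.5% of 1283 in the filtered columns. Tested on simulated data, the search found 3 of 3 totals. Rows were matched to the BDGP6 annotation by FlyBase identifier (1238 genes) or annotation number, 1273 in all; it gave names, order, strand, overlaps, exons and protein lengths, and its coordinates are not printed.

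Named genes were all members, Delta class genes without a row, other listed glutathione S-transferases, genes within 5 places of the members, and listed genes of 6 lists. The members and lists were chosen with earlier results of these data known. Alternatives were fold cutoffs of 2 and 4, a false discovery rate of 0.01% with and without the filter, leaving out members that lost over 50% of their score, and members by symbol alone. Protein and promoter sequences were not analysed here. Python 3.11.15, pandas 2.3.3, numpy 2.4.6 and matplotlib 3.10.9 were used.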

Additional observations from a re-analysis of the deposited data

How the results depend on the processing

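The alternatives choose among the 8 Delta class genes and recompute no ratio, so they cannot turn a direction, and the 8 genes at or under a false discovery rate of 1% with and without the filter are so because all listed genes are. The count of higher members, 7 at the cutoffs of the authors' deposited table, was 5 at a fold cutoff of 2 and 2 (GstD2 and GstD4) at 4, and remained 7 at a false discovery rate of 0.01%. It was 4 without GstD1, GstD2 and GstD3, whose score fell to less than 50% under the filter. The median log2 ratio of the members, 1.39, was 1.64 at a fold cutoff of 2 and 5.09 at 4. It was 1.63 both at a false discovery rate of 0.01% with the filter and with members by symbol alone, each of which leaves out CG17639, and 0.97 without the 3 genes above. At a false discovery rate of 0.01% without the filter it was unchanged. These shifts follow from which genes each setting leaves in. No paired analysis was possible because the table holds no values per sample, and leaving out each replicate could not be run for the same reason. The depth behind each gene is unknown.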
